A study of Mus musculus with 6 samples.

Results

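The MYC, MAX and MXD network was followed across 6 RNA sequencing libraries of activated mouse T cells, through its 9 genes Myc, Max, Mnt, Mga, Mxd1, Mxd4, Mxi1, Mlx and Tfap4. Each gene was taken by its symbol from a table of read counts for 24470 genes. The CCL19 group of 3 libraries came from cells cultured with the recombinant mouse chemokine CCL19, whose receptor CCR7 guides naive T cells into lymph nodes. The NoCKN group of 3 libraries came from cells cultured without it. In both groups the cells were naive CD4+ T cells, which are helper T cells that have not met antigen, taken from male C57BL/6J mice (spleen plus lymph nodes draining the skin) and purified by magnetic sorting (MACS). The age of the mice is not stated. All cells were stimulated for 6 h by immobilised anti-CD3 and anti-CD28, coated at 1 µg/mL, which engage the T cell receptor complex and its main costimulatory receptor. No unstimulated group was compared, so every value describes cells already receiving an activating stimulus.

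MYC is a basic helix-loop-helix leucine zipper transcription factor that binds DNA as a dimer with MAX, mostly at the E-box CACGTG, and raises the transcription of genes for ribosome production, nucleotide synthesis and glycolysis. MXD1, MXD4, MXI1 and MNT compete for MAX and the same sites and bring in SIN3 and histone deacetylases, which lower transcription. MYC appears soon after a naive T cell is activated and is needed for the cell's growth, while MXD proteins are known from resting and differentiating cells. MGA pairs with MAX within a Polycomb complex, MLX pairs with MondoA (gene Mlxip) and with some MXD proteins, and TFAP4, a related factor that binds CAGCTG without MAX, is encoded by a MYC target gene.

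The E-box itself could be read in the promoters of several network genes, so the sequences are shown before the values. RefSeq promoter windows on GRCm38.p6, the mm10 assembly, ran from 250 bases before to 50 bases after a transcript start. A window was found for 7 members; Myc and Tfap4 had no entry. CACGTG, a palindrome that reads the same on both strands, lay in 4 of these 7 genes, namely Max, Mnt, Mxd4 and Mlx. It lay in 7.15% of all 32851 mouse windows of this length and in 12.2% of the 9304 tested genes that had a window. CAGCTG, also a palindrome, whose matches cannot overlap those of CACGTG, lay in 1 of the 7, Mga, and in 16.3% of all windows. The Mxd4 window (chr5:34187661-34187960, minus strand) is shown whole because Mxd4 is the member with the largest fold change. It is followed by 20 bases on either side of the E-box of Max (chr12:76962226-76962271, minus strand), Mnt (chr11:74830781-74830826, plus strand) and Mlx (chr11:101087230-101087275, plus strand), all read 5′ to 3′ with CACGTG in capitals.
Mxd4: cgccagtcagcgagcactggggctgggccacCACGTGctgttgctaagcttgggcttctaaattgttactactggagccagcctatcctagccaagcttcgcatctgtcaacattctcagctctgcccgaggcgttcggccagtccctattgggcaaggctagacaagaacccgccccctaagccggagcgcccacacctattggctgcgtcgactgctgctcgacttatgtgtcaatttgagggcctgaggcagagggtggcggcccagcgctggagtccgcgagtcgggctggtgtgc
Max: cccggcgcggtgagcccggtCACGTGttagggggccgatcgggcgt
Mnt: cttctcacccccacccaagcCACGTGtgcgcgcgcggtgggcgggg
Mlx: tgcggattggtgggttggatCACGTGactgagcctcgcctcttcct
The first base of the E-box lay 3 bases upstream of the transcript start in Max, 40 in Mlx, 123 in Mnt and 219 in Mxd4. These are matches of letters in a window; no binding was measured.

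With CCL19, Myc stood higher and Mxd4 lower, and the other 7 members differed by less than the tests could call. DESeq2, the tool named in the submitters' processing notes, called Myc higher and Mxd4 lower. It called 6.55% of the 9613 genes with an adjusted p higher and 5.6% lower. edgeR's quasi-likelihood test with Benjamini-Hochberg adjustment over 11666 tested genes called no member and no gene of any kind (0.0%), its smallest adjusted p being 0.0505. At an unadjusted edgeR p under 0.05 it picked 3 members, Myc, Mxd4 and Mxi1, beside 3213 of all genes (27.5%), and limma-voom called 0. Myc and Mxd4 were also the 2 members whose groups did not overlap, beside 29.8% of all genes. Over the 9 members, which all passed the filter on low counts, 5 log2 fold changes lay above 0 and 4 below, with a median of 0.02 beside -0.00074 over all tested genes. The authors' deposited table of changed genes lists 1168 genes, among them Myc as higher and Mxd4 as lower and no other member. DESeq2 run here on the same counts called 1168 genes, the same ones in the same direction. The authors' list therefore repeats that result and is no separate evidence.

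The 6 libraries held between 16978736 and 27429898 counts. The labels do not say whether replicates are separate mice or cultures, so p-values reflect a spread between samples that may be only technical. On the first principal component of all genes, with 41.8% of the variance, the CCL19 libraries lay at 25.4, 11.4 and 1.69 and the NoCKN libraries at -24.7, -7.27 and -6.61, so that replicate 1 of each group lay outermost. T cell markers were counted in all libraries for 9 of 9 genes and summed to between 4040 and 4406 CPM (read counts scaled to the TMM-adjusted library size) with CCL19 and between 4285 and 4628 CPM without. Summed B cell markers, 6 of 6 detected, ranged from 16.5 to 22.6 CPM and from 21.2 to 25.0 CPM in the same order of groups, and 8 of 8 myeloid markers from 10.6 to 17.6 and from 12.3 to 20.8 CPM. CD8 T cell, dendritic, natural killer and erythroid lists each summed to at most 17.2 CPM, none of these lists differing between groups without overlap. The regulatory T cell list summed to between 363 and 466 CPM with CCL19 and between 240 and 318 CPM without, so its groups did not overlap. It holds Foxp3, Ikzf2 and Il2ra, the last of which activated T cells also express. The sum does not show which of these genes differed. The stroma list summed to between 190 and 243 CPM with CCL19 and between 233 and 277 CPM without, nearly all from Pecam1, which naive T cells carry. No marker was at 0 in every library, and the part of these levels in the results was not tested.

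Myc (Gene ID 17869), on mm10 at chr15:61985341-61990361, plus strand, had 1046, 936 and 781 CPM in the CCL19 libraries, against 570, 771 and 715 CPM in the NoCKN libraries. All 3 CCL19 libraries were above all 3 NoCKN libraries, but CCL19 replicate 3 and NoCKN replicate 2 nearly touched. The means were 921 ± 133 CPM with CCL19 and 685 ± 104 CPM without (SD, n = 3 each), a 1.34-fold level. The log2 fold change was 0.43 ± 0.12 (SE; 95% interval 0.17 to 0.69), with an adjusted p of 0.0606 by edgeR and 0.0095 by DESeq2. DESeq2 no longer called Myc without CCL19 replicate 1 (adjusted p 0.117), CCL19 replicate 2 (0.0822) or NoCKN replicate 1 (0.0775). Among the runs that left out a library, edgeR called it only without CCL19 replicate 3 (adjusted p 0.0186), where it called 1599 genes in all. In bulk RNA, fewer cells making a transcript and less of it per cell cannot be told apart.

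Pvt1, a long noncoding RNA gene that starts 47625 bp beyond the end of Myc on the same strand, had 37.5, 36.5 and 31.9 CPM with CCL19, against 26.2, 31.1 and 30.5 CPM without. As for Myc, the groups did not overlap and CCL19 replicate 3 lay closest to the NoCKN libraries. Its log2 fold change was 0.27 ± 0.10, and neither edgeR (adjusted p 0.0992) nor DESeq2 (adjusted p 0.0917) called it. Without CCL19 replicate 3 both did (adjusted p 0.0426 by edgeR and 0.0417 by DESeq2). In that run edgeR called 1599 genes and DESeq2 1704, against 0 and 1168 with all libraries. No other left-out library gave a call of Pvt1 by either tool. Without NoCKN replicate 1 its log2 fold change was 0.20 (edgeR adjusted p 0.381).

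**Figure D1:**
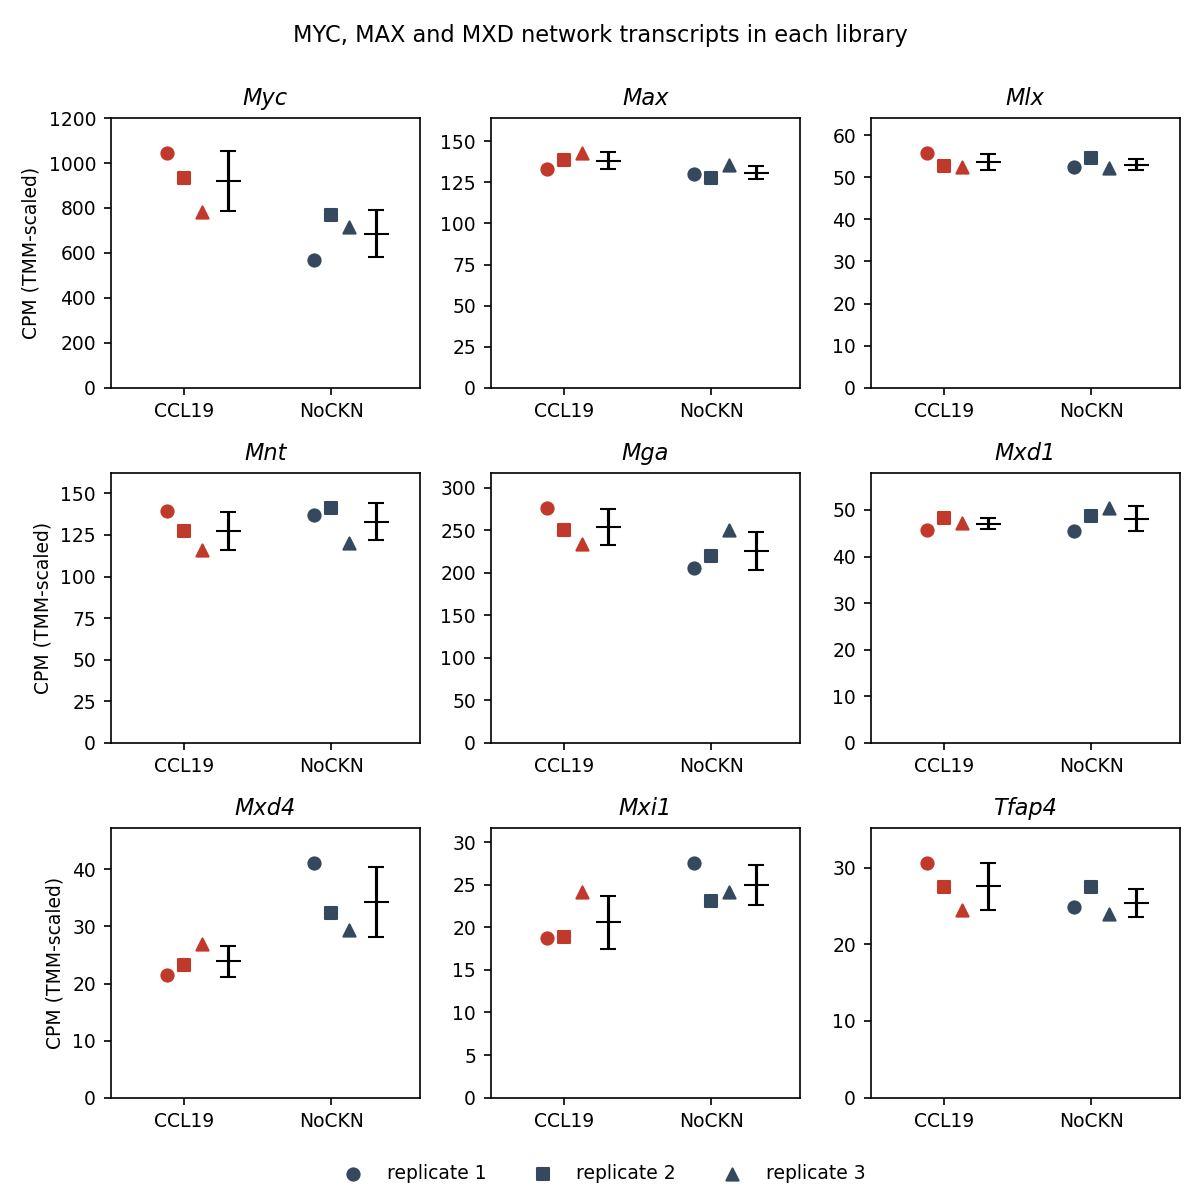
Level of each network gene in every library, in TMM-scaled CPM on axes that start at 0; symbols mark the replicate, and the bar and its error give the mean ± SD of 3 libraries. Myc has by far the highest values, and the CCL19 points lie above all NoCKN points for Myc and below all of them for Mxd4.

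The common partner Max (Gene ID 17187; chr12:76937269-76962248, minus strand) had 133, 139 and 143 CPM with CCL19, against 130, 128 and 135 CPM without. The groups overlapped, CCL19 replicate 1 lying below NoCKN replicate 3. Its log2 fold change of 0.08 ± 0.07 had a 95% interval from -0.07 to 0.23, which bounds any difference at a smaller size than the one estimated for Myc, with an adjusted p of 0.486 by edgeR and 0.511 by DESeq2.

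Among the MAX partners that repress, Mxd4 (Gene ID 17122; chr5:34176580-34187710, minus strand) had 21.5, 23.3 and 26.8 CPM in the CCL19 libraries, against 41.2, 32.3 and 29.4 CPM in the NoCKN libraries. Every CCL19 library was below every NoCKN library, and replicate 3 of each group was nearest to the other group. The means were 23.9 ± 2.73 CPM with CCL19 and 34.3 ± 6.15 CPM without (SD, n = 3 each), a 0.70-fold level. The log2 fold change was -0.52 ± 0.12 (95% interval -0.79 to -0.26), with an adjusted p of 0.0505 by edgeR and 0.0064 by DESeq2. DESeq2 did not call Mxd4 without CCL19 replicate 2 (adjusted p 0.0732) and gave it no adjusted p without replicate 1 of either group. In the same runs edgeR did not call it either (adjusted p 0.152, 0.167 and 0.205). Without CCL19 replicate 3 both tools called it (adjusted p 0.0174 by edgeR and 0.0017 by DESeq2). Both also did without NoCKN replicate 3 (0.042 by edgeR and 0.002 by DESeq2). In these 2 runs edgeR called 1599 and 513 genes in all, and DESeq2 1704 and 1258. Without NoCKN replicate 2 DESeq2 called it (adjusted p 0.0143) and edgeR did not (0.0722).

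Mxi1 (Gene ID 17859; chr19:53310506-53375810, plus strand) had 18.7, 18.9 and 24.1 CPM with CCL19, against 27.6, 23.1 and 24.2 CPM without. CCL19 replicates 1 and 2 were below all NoCKN libraries, and CCL19 replicate 3 was level with NoCKN replicate 3. The log2 fold change was -0.28 ± 0.12 (95% interval -0.53 to -0.03), with an unadjusted edgeR p of 0.031 and an adjusted p of 0.141, and 0.142 by DESeq2. Without CCL19 replicate 3 it was -0.41 and both tools called it (adjusted p 0.0281 by edgeR and 0.0267 by DESeq2). In that run edgeR called 1599 genes and DESeq2 1704. No other left-out library gave a call of Mxi1 by either tool. Without NoCKN replicate 1 its log2 fold change was -0.20 (edgeR adjusted p 0.463).

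Mxd1 (Gene ID 17119; chr6:86647044-86669159, minus strand), the founding member of the MXD family, had 45.8, 48.2 and 47.2 CPM with CCL19, against 45.4, 48.6 and 50.5 CPM without. The groups overlapped throughout, and the log2 fold change of -0.03 ± 0.08 had a 95% interval from -0.20 to 0.13 and an edgeR adjusted p of 0.821. Mnt (Gene ID 17428; chr11:74830924-74845725, plus strand), which encodes the repressing MAX partner found in most cell types, had 139, 127 and 116 CPM with CCL19, against 137, 141 and 120 CPM without. Its highest and lowest CCL19 libraries bracketed most of the NoCKN range, and its log2 fold change was -0.06 ± 0.09 (95% interval -0.25 to 0.12; edgeR adjusted p 0.676). The value was 0.09 once GC content and length were fitted as an offset, so its sign is not set by these data.

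**Figure D2:**
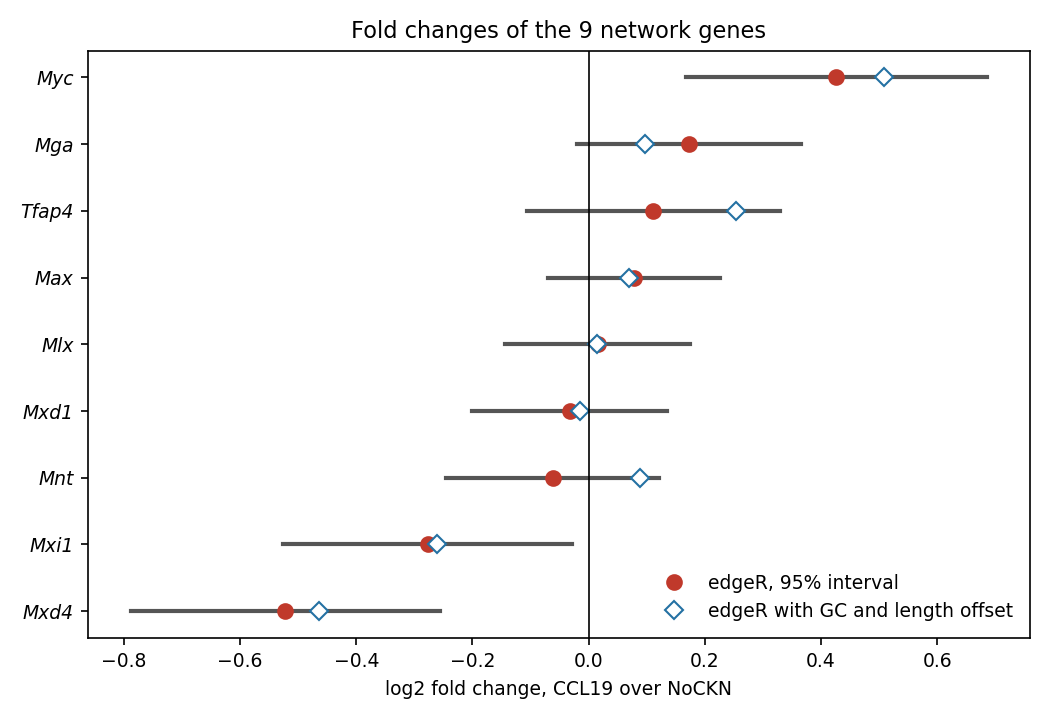
Log2 fold change of CCL19 over NoCKN for each network gene; points are edgeR estimates, bars their 95% intervals, and diamonds the estimates once GC content and length entered as offsets. The intervals of Myc, Mxd4 and Mxi1 leave out 0, and the diamonds of Mnt and Tfap4 lie farthest above their points.

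Mga (Gene ID 29808; chr2:119897228-119969581, plus strand) had 276, 251 and 234 CPM with CCL19, against 206, 220 and 250 CPM without. Groups overlapped because NoCKN replicate 3 was above CCL19 replicate 3, and the log2 fold change was 0.17 ± 0.09 (95% interval -0.02 to 0.36), with an adjusted p of 0.231 by edgeR and 0.211 by DESeq2. By edgeR it was 0.10 without CCL19 replicate 1 and also 0.10 with the GC and length offset. Tfap4 (Gene ID 83383; chr16:4544661-4559720, minus strand) had 30.6, 27.5 and 24.5 CPM with CCL19, against 24.9, 27.4 and 23.9 CPM without. Here CCL19 replicate 1 stood alone above the rest, and the log2 fold change was 0.11 ± 0.10 (95% interval -0.11 to 0.33; edgeR adjusted p 0.504), 0.25 with the GC and length offset (edgeR adjusted p 0.125) and 0.03 without CCL19 replicate 1.

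Mlx (Gene ID 21428; chr11:101087290-101092207, plus strand) had 55.8, 52.7 and 52.4 CPM with CCL19, against 52.4, 54.5 and 52.2 CPM without. The 6 libraries fell within a narrow band, and the log2 fold change of 0.02 ± 0.07 had a 95% interval from -0.14 to 0.18 and an edgeR adjusted p of 0.917. Exons of Mlx overlap those of Psmc3ip on the opposite strand over 385 bp, and exons of Mxi1 overlap those of Gm10197 over 194 bp. Since no source used here gives the strand setting of the counting, reads in these stretches could come from either gene, and the values of Mlx and Mxi1 carry that uncertainty. No other member overlapped exons of another gene.

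Relatives outside the 9 genes were scarce, apart from the MLX partner. Mycn had 8 reads in all over the 3 CCL19 libraries and 9 over the 3 NoCKN libraries, and Mycl had 20 and 7 in the same order. Mxd3 had 5, 5 and 9 reads with CCL19, against 23, 15 and 6 without. Mlxipl, which encodes the glucose-responsive factor ChREBP, had 2 reads in 1 library and none in the other 5, where a count of 0 allows up to 0.109 to 0.181 CPM, a bound that covers counting error only. These 4 genes did not pass the filter on low counts and were not tested. Mlxip, which encodes MondoA, had 351, 351 and 302 CPM with CCL19, against 318, 329 and 317 CPM without. Its groups overlapped and its log2 fold change was 0.06 ± 0.08 (edgeR adjusted p 0.674).

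Levels can be compared between genes only per length, here as RPKM, which is CPM divided by the exon length in kilobases. In RPKM the order was the same in both groups: Myc, Max, Mnt, Mlx, Mga, Tfap4, Mxd1, Mxd4 and Mxi1. Myc averaged 376 RPKM with CCL19 and 280 RPKM without, and over all libraries it ranked 124 among 11603 tested genes with a length. Max averaged 70.6 RPKM with CCL19 and 66.9 RPKM without, and Mxi1, the lowest member, 3.09 and 3.75 RPKM in the same order of groups. Neighbours in the order did not overlap within a group, except Mnt and Mlx, which overlapped in both groups, and Tfap4 with Mxd1 and Mxd1 with Mxd4, which overlapped in the NoCKN libraries alone.

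Ratios within a library, in RPKM and chosen after the values were seen, put the members beside each other without a test. Myc over Max was 6.29, 5.39 and 4.37 with CCL19, against 3.51, 4.83 and 4.23 without, and the groups overlapped. Myc over the summed repressing partners Mnt, Mxd1, Mxd4 and Mxi1 was 8.82, 8.15 and 6.94 with CCL19, against 4.28, 5.94 and 6.06 without. This second ratio was higher in every CCL19 library than in any NoCKN library. Myc over Mxd4 was 77.2, 63.8 and 46.1 with CCL19, against 21.96, 37.9 and 38.6 without, and the sum of Mxd1, Mxd4 and Mxi1 over Max was 0.267, 0.270 and 0.282 with CCL19, against 0.368, 0.341 and 0.319 without. Neither ratio overlapped between groups. For Myc over Mxd4 this was fixed in advance, since every CCL19 library was above every NoCKN library for Myc and below for Mxd4. The sum over Max leaves out Mnt, the highest of the repressing partners, at 27.8 RPKM with CCL19 and 29.0 RPKM without. Mnt itself overlapped between groups, so the separation of that ratio holds only for the sum without it.

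**Figure D3:**
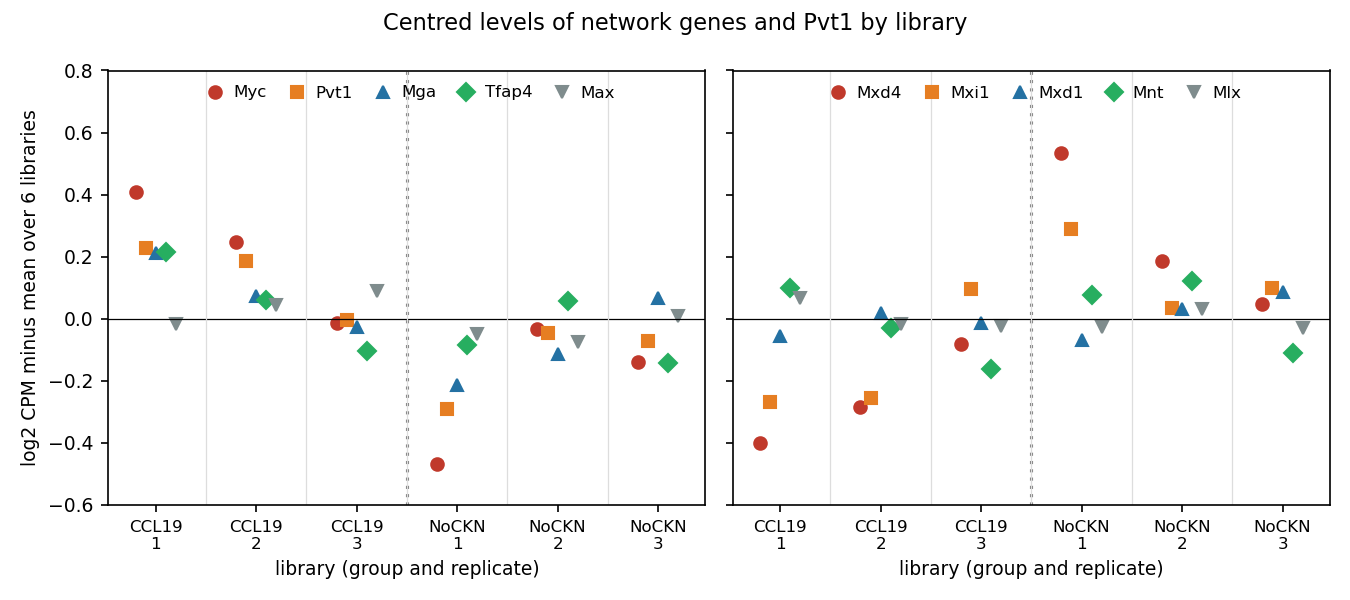
Log2 CPM of the network genes and Pvt1 in each library, minus the gene's mean over the 6 libraries; the left panel holds Myc, Pvt1, Mga, Tfap4 and Max and the right panel Mxd4, Mxi1, Mxd1, Mnt and Mlx. Myc and Mxd4 spread widest, with replicate 1 of each group outermost, while Max, Mlx and Mxd1 stay near 0.

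The 5 genes nearest to Myc over the 6 libraries, by root mean square difference of centred log2 CPM among 5913 genes of sufficient level, were Rrp1b, Polr1b, Itgav, Shmt1 and Ccdc86. Rrp1b, for a nucleolar protein, differed by 0.0266 and Polr1b, for a subunit of RNA polymerase I, by 0.0302, beside a median of 0.270 over all genes compared. Rrp1b had 380, 344 and 291 CPM with CCL19, against 210, 273 and 268 CPM without. As for Myc, CCL19 replicate 1 was highest and NoCKN replicate 1 lowest, which the choice of Rrp1b by likeness to Myc made likely. Replicate 1 of each group was also outermost on the first principal component of all genes. Itgav, for the integrin alpha V chain, Shmt1, for a cytosolic enzyme of serine and folate metabolism, and Ccdc86 differed by 0.0331 to 0.0360. Pvt1 ranked 289 and Mga 1056, the member nearest to Myc among those at or above the level minimum.

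**Figure D4:**
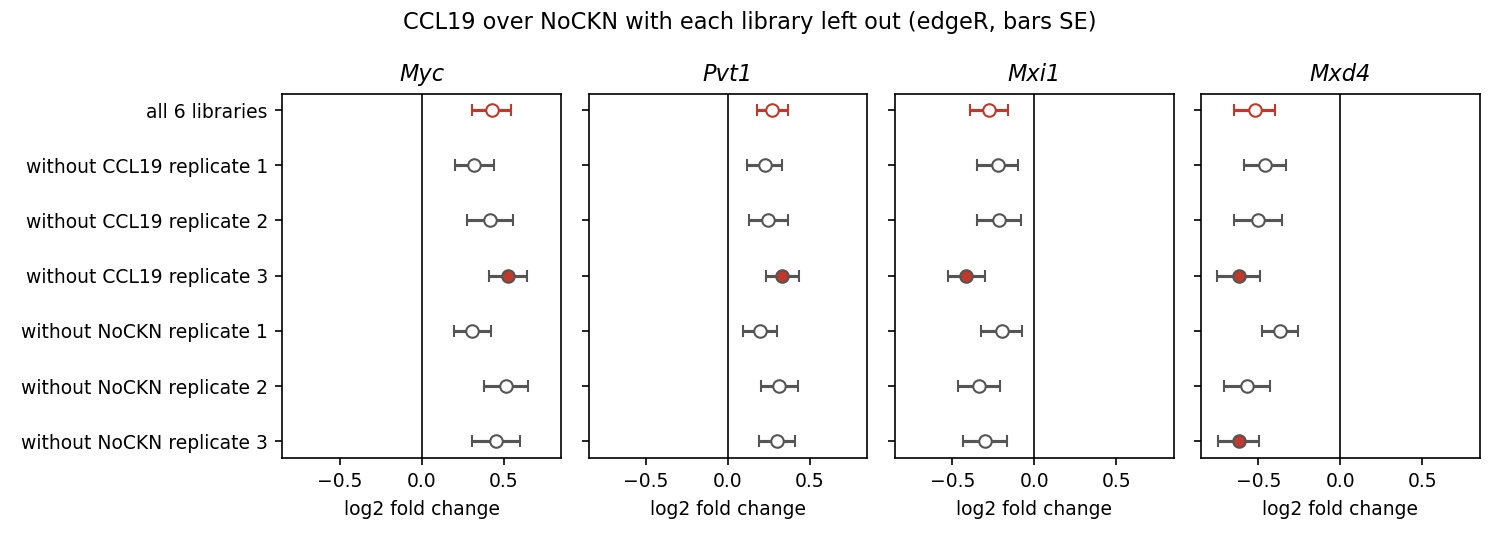
Log2 fold change (edgeR, ± SE) of Myc, Pvt1, Mxi1 and Mxd4 with all libraries and with each library left out; filled red points have an edgeR adjusted p under 0.05. Every estimate keeps its sign, and all 4 genes are filled without CCL19 replicate 3, where edgeR called 1599 genes in all.

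Most genes of a list known as induced by MYC, chosen with earlier results of these data known, had higher levels with CCL19. Of 43 such genes, all tested, 41 had a log2 fold change above 0, beside 49.8% of all tested genes, and the 2 below were Tert (-0.16) and Eno1 (-0.02). DESeq2 called 28 higher, beside 6.55% of all genes, and 0 lower, edgeR called 0, and the groups did not overlap in 24, all higher, beside 15.3% of all genes. The median log2 fold change was 0.32 beside -0.00074 over all tested genes, 0.25 without CCL19 replicate 1 and 0.24 without NoCKN replicate 1. The DESeq2 count fell to 5 without CCL19 replicate 1, 6 without CCL19 replicate 2 and 8 without NoCKN replicate 1, and the other 3 libraries left out in turn gave 22 to 35. Hspd1, for a mitochondrial chaperone, had 483, 441 and 398 CPM with CCL19, against 263, 318 and 346 CPM without, and DESeq2 called it higher (log2 fold change 0.51, adjusted p 0.0014). Hk2, for the first enzyme of glycolysis, averaged 70.6 ± 10.7 CPM with CCL19 and 46.9 ± 7.84 CPM in NoCKN libraries (log2 fold change 0.59, DESeq2 adjusted p 0.0022). DESeq2 did not call Hk2 without CCL19 replicate 1 (adjusted p 0.0537) or without NoCKN replicate 1. Mir17hg, the host of a microRNA cluster, and Nop58, for a nucleolar protein of ribosomal RNA modification, were called higher by DESeq2 at log2 fold changes of 0.47 (adjusted p 0.0019) and 0.46 (adjusted p 0.002).

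CACGTG lay in the promoter window of 10 of the 36 induced genes that had one (27.8%). Over all tested genes with a window the share was 12.2%. Of those 10 induced genes DESeq2 called 9 higher, beside 15 of the 26 whose window lacked it. Over all tested genes with a window it called 8.57% higher with the motif and 5.26% without. Whether the motif played a part was not tested. Cdk4, for a kinase that drives entry into the cell cycle, is shown because its window held 4 copies, and was chosen after its values were seen. The window lies at chr10:127063285-127063584 on the plus strand of GRCm38.p6, and for Hspd1 the E-box with 20 bases on either side lies at chr1:55088298-55088343 on the minus strand, both from RefSeq with CACGTG in capitals.
Cdk4: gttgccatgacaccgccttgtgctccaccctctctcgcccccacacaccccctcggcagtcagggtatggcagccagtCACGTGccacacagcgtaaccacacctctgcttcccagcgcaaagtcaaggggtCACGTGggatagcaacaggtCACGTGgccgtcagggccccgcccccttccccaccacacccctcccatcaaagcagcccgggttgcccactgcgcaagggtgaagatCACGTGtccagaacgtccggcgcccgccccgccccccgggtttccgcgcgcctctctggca
Hspd1: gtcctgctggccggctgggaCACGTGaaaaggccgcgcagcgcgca
The log2 fold change of Cdk4 was 0.31 ± 0.08, with an adjusted p of 0.0116 by DESeq2 and 0.0542 by edgeR, and DESeq2 did not call it without CCL19 replicate 1, CCL19 replicate 2 or NoCKN replicate 1.

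Genes that MYC is known to repress went both ways, and of 10 listed 8 passed the filter. DESeq2 called 1 lower, Cdkn1b, which encodes the cell cycle inhibitor p27, with 121, 137 and 150 CPM in CCL19 libraries, against 197, 166 and 164 CPM in NoCKN libraries (log2 fold change -0.37, adjusted p 0.0083). It called 1 higher, Cdkn1a, which encodes the inhibitor p21, with 91.7, 89.8 and 76.3 CPM with CCL19, against 48.5, 71.4 and 66.6 CPM in NoCKN libraries (log2 fold change 0.47, adjusted p 0.0097). Neither gene's groups overlapped, and edgeR called neither. Over the 8 genes the groups did not overlap in 3 that were lower and 2 that were higher, beside 14.5% and 15.3% of all genes. At an unadjusted edgeR p under 0.05, 4 of the 8 were lower and 1 higher, beside 13.0% and 14.5% of all genes. DESeq2 called no gene of this list without CCL19 replicate 1, CCL19 replicate 2 or NoCKN replicate 1. The median over the 8 genes was -0.12, with 3 above 0 and 5 below, beside 49.8% of all tested genes above 0. Over all genes with an adjusted p, DESeq2 called 6.55% higher and 5.6% lower.

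Among 21 tested cofactors of MYC, such as the histone acetyltransferase and elongation complexes it recruits, 15 lay above 0 and 6 below. Their median log2 fold change was 0.08, and 49.8% of all tested genes lay above 0. At an unadjusted edgeR p under 0.05, 8 cofactors were higher, beside 14.5% of all genes, and 0 lower. The groups did not overlap in 7 cofactors, all higher, beside 15.3% of all genes. DESeq2 called 1 cofactor higher, beside 6.55% of all genes with an adjusted p, and 0 lower. This was Cdc73, a subunit of the PAF1 elongation complex, at 58.6 ± 1.47 CPM with CCL19 and 47.5 ± 4.43 CPM in NoCKN libraries (SD, n = 3 each, log2 fold change 0.31, adjusted p 0.0252). With the GC and length offset its log2 fold change was 0.17; the GC content of its exons was 36.3%, beside a median of 50.7% over all tested genes, and DESeq2 did not call it (adjusted p 0.257). Among 22 tested genes for proteins that act in the modification or degradation of MYC, 13 lay above 0 and 9 below, with a median of 0.04. At an unadjusted edgeR p under 0.05, 3 of them were higher and 3 lower, beside 14.5% and 13.0% of all genes. DESeq2 called 1 of the 22 higher and 1 lower, beside 6.55% and 5.6% of all genes with an adjusted p. DESeq2 called Set, for an inhibitor of the phosphatase PP2A, higher (326 ± 19.7 CPM with CCL19 and 271 ± 22.1 CPM without, adjusted p 0.0277) and Mapk3, for the kinase ERK1, lower (36.2 ± 2.61 CPM with CCL19 and 45.8 ± 4.06 CPM without, adjusted p 0.0197). With the GC and length offset DESeq2 called neither Set (adjusted p 0.0701) nor Mapk3 (adjusted p 0.0828), and 3 others, Gsk3a, Pim3 and Usp36, were called higher. Neither the cofactors nor the list for MYC modification and degradation had a gene called by DESeq2 without CCL19 replicate 1, CCL19 replicate 2 or NoCKN replicate 1. Cdc73 was also not called without NoCKN replicate 2.

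Of 19 tested genes for the SIN3 and NCOR corepressors that MXD proteins and MNT recruit, 15 lay below 0 and 4 above. Over all tested genes 49.8% lay above 0. The 19 had a median log2 fold change of -0.08, or -0.03 with the GC and length offset. None was called lower by DESeq2, edgeR or limma-voom, 2 were lower at an unadjusted edgeR p under 0.05, beside 13.0% of all genes, and the groups did not overlap in 6 that were lower, beside 14.5% of all genes. DESeq2 called 2 higher, beside 6.55% of all genes with an adjusted p. The first was Hdac2, a histone deacetylase, at 123 ± 8.58 CPM with CCL19 and 101 ± 7.16 CPM in NoCKN libraries (log2 fold change 0.29, adjusted p 0.023). The other was Rbbp7, a histone-binding subunit, at a log2 fold change of 0.25 (adjusted p 0.0376). With the GC and length offset DESeq2 called neither (adjusted p 0.135 for Hdac2 and 0.0766 for Rbbp7). Of 14 tested partners of MGA in the Polycomb complex PRC1.6, 10 lay above 0, beside 49.8% of all tested genes, with a median of 0.08. At an unadjusted edgeR p under 0.05, 5 were higher and 1 lower, beside 14.5% and 13.0% of all genes. DESeq2 called 2 of the 14 higher, beside 6.55% of all genes with an adjusted p, and 0 lower. They were Hdac2, which the corepressor list also holds, and Tfdp1, for the dimer partner of E2F factors. Tfdp1 had 106 ± 11.9 CPM with CCL19 and 84.4 ± 8.51 CPM in NoCKN libraries (log2 fold change 0.33, adjusted p 0.0238). Neither list had a gene called by DESeq2 without CCL19 replicate 1, CCL19 replicate 2 or NoCKN replicate 1, and Hdac2 and Rbbp7 were also not called without NoCKN replicate 2.

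The MLX and MondoA targets were Txnip and Arrdc4, which encode arrestin-like proteins that restrain glucose uptake. Txnip had 356, 402 and 472 CPM with CCL19, against 558, 454 and 501 CPM without. DESeq2 called it lower (log2 fold change -0.30, adjusted p 0.0424), although CCL19 replicate 3 was above NoCKN replicate 2, and edgeR did not call it (adjusted p 0.101). DESeq2 called Txnip only without CCL19 replicate 3 or NoCKN replicate 2 among the 6 runs that left out a library. Arrdc4 had a log2 fold change of 0.13 ± 0.23 (edgeR adjusted p 0.753), and DESeq2 gave it no adjusted p.

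**Figure D5:**
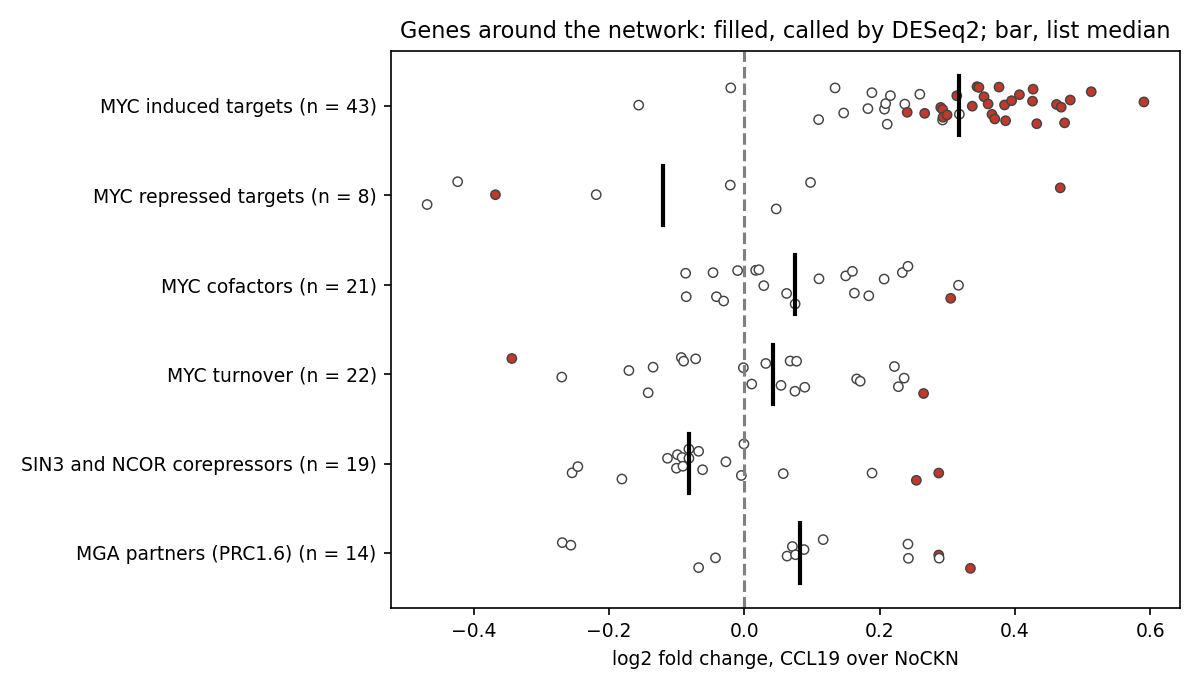
Log2 fold change of CCL19 over NoCKN for each tested gene of 6 lists around the network; filled points are called by DESeq2, bars give each list's median and the dashed line the median of all tested genes. The induced targets lie almost wholly above 0 around a median of 0.32, while the other 5 lists drawn have points on both sides of the line.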

How the data were processed

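The deposited values are unnormalised whole-number read counts by gene, given beside gene symbols and coordinates, per the file headers. Reads were processed with STAR 2.5, featureCounts 1.5.0-p1 of Subread and DESeq2 1.28.1 on mm10, per the submitters' processing notes. The strand setting, the annotation release and how multimapping reads were handled were not given in the sources used here. A further table deposited by the authors names genes they scored as changed and gives each direction in words.

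Groups came from sample titles and treatments. The 3 CCL19 and 3 NoCKN libraries were compared with edgeR 4.0.16 in R 4.3.3 (filterByExpr, TMM, quasi-likelihood F test, Benjamini-Hochberg adjustment, threshold 0.05). The filter kept 11666 of 24470 genes, and the biological coefficient of variation was 8.72%. DESeq2 1.42.0 (independent filtering at 0.1) and limma 3.58.1 (voom) were alternatives, with DESeq2 size factors, no filter, a robust prior, a threshold of 0.1, a GC and length offset (natural splines, 5 degrees of freedom), a replicate block and each library left out. Log2 CPM used a prior count of 2. No pair of libraries agreed within sampling noise (lowest chi-square per degree of freedom 5.19).

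The network genes and gene lists were chosen with earlier results of these data known. Named genes are the 9 members, their relatives and Pvt1, up to 4 called genes of each list (by DESeq2, since edgeR called none), and the 5 genes nearest to Myc among those with a mean log2 CPM of at least 5. Outside this rule Cdk4, Tert, Eno1, Gsk3a, Pim3, Usp36 and Arrdc4 were also named, for the values given with them. Tests were tried on simulated data. Exon lengths and overlaps came from the annotation of the same assembly. Python 3.11.15 with matplotlib 3.10.9 drew the figures.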

Additional observations from a re-analysis of the deposited data

How the results depend on the processing

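Where edgeR called 0 genes and 0 members (3213 genes at an unadjusted p under 0.05), the same held with DESeq2 size factors, the GC and length offset, the replicate block and limma. DESeq2 called 1168 genes and 2 members (Myc and Mxd4), edgeR without a filter 1600 and 2, edgeR with a robust prior 529 and 1 (Mxd4), and edgeR called 1695 and 2 at a threshold of 0.1. DESeq2 with the GC and length offset called 872 and 2, the genes splitting into 601 higher and 271 lower, against 630 higher and 538 lower without it. With each library left out, edgeR called between 0 and 1599 genes and DESeq2 between 55 and 1704, and both called between 0 and 3 members. The highest counts came without CCL19 replicate 3, and edgeR called 513 genes without NoCKN replicate 3. DESeq2 called 55 without CCL19 replicate 1, 105 without NoCKN replicate 1, 123 without CCL19 replicate 2, 1010 without NoCKN replicate 2 and 1258 without NoCKN replicate 3. The groups share replicate numbers that the labels do not explain. Samples with the same number did not deviate together (correlations between -0.164 and 0.0814), and the best match carried its own number for 1 of 3 CCL19 and 0 of 3 NoCKN samples. With the replicate block DESeq2 called 178 genes and 1 member, Myc (adjusted p 0.0483), with 10 of the induced targets, 1 of the repressed (Cdkn1a) and 0 of the other lists. In that run Mxd4 had a log2 fold change of -0.51 and an unadjusted DESeq2 p of 0.0018. DESeq2 gave no adjusted p there to Mxd4, Mxi1 or Tfap4. Signs turned only for members near 0. Mnt was at 0.089 with the offset in edgeR and 0.094 in DESeq2, and at 0.0034 by DESeq2 without CCL19 replicate 3. Mxd1 was at 0.0053 by DESeq2 without NoCKN replicate 3, and Mlx at -0.017 by edgeR and -0.016 by DESeq2 without CCL19 replicate 1. The causes of these shifts were not tested. With 3 libraries a group the 95% interval of Mga ran from -0.02 to 0.36 and that of Mxi1 from -0.53 to -0.03, so sizes within these could not be told apart.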

Other observations

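Across the 9304 tested genes with a promoter window, the 1132 that held CACGTG had a median log2 fold change of 0.04, with 55.2% above 0, and the 8172 without it a median of -0.0062, with 48.9% above 0. DESeq2 called 8.57% of genes with the motif higher and 4.59% lower, and 5.26% of those without it higher and 4.56% lower. With genes split into 3 classes by promoter GC content, the medians with and without the motif were 0.02 and -0.000078 in the lowest class, 0.02 and -0.010 in the middle class and 0.05 and -0.0078 in the highest. In the middle class DESeq2 called 5.76% of genes with the motif lower and 4.91% of those without it. The other classes went the other way, with 2.93% and 3.71% in the lowest and 4.66% and 5.11% in the highest. The shares called higher with and without the motif were 9.45% and 5.57% in the lowest class. They were 7.67% and 5.06% in the middle class and 8.82% and 5.15% in the highest. These are descriptions across genes, which are not independent replicates, and no test was made.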
